A study of Mus musculus with 12 samples.

Results

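The comparison described here was that between the spleens of unmanipulated (naïve) mice of 2 BALB/c colonies, BALB/cByJ and BALB/cJ. It rests on all arrays that the labels give as naïve, 3 of each colony, which are 6 of the 12 arrays of the series. The other 6 arrays came from spleens of the same colonies taken 12 days after 1 injection of proteoglycan (PG) in adjuvant, with 100 μg PG and 2 mg dimethyldioctadecylammonium per mouse in the labels. They are used here to ask which naïve differences were also present in immunized mice. Each array held RNA of 1 female mouse, extracted from a piece of spleen of about 50 mg. The study's methods give 24 to 26 weeks as the age of the mice of its colony comparison and call the array mice age-matched, and the labels state no age. Naïve BALB/cByJ mice carry sample numbers 10, 11 and 12 and naïve BALB/cJ mice 13, 14 and 15. Nothing says that such a run was a batch, and an effect of processing order cannot be told apart from the colony.

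BALB/cJ and BALB/cByJ are substrains that descend from 1 stock of BALB/c mice and have been bred apart for decades, so they share nearly all of their genome and differ by mutations fixed since. Among the known differences are a reduced expression of Zhx2, a transcriptional repressor of fetal liver genes, in BALB/cJ, and a loss of the mitochondrial enzyme short-chain acyl-CoA dehydrogenase (Acads) in BALB/cByJ. The mouse spleen filters blood, holds B and T cells in its white pulp, and keeps forming red cells in its red pulp throughout adult life, so that dividing erythroid precursors are part of the normal organ. Whole-organ RNA cannot tell fewer cells of a kind from less RNA per cell, and this holds for every gene group below.

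The authors' values are on a logarithmic scale, read here as log2, and each probe set was centred by them on its median over the 12 arrays. A value of 1 therefore means a signal at 2-fold the median array, and no value shows how strongly a gene was expressed. The labelled tissue could for this reason not be checked against spleen markers as a level, and all statements below are differences. Differences are BALB/cByJ minus BALB/cJ, with the standard error (SE) and the Benjamini-Hochberg adjusted p from limma, and a probe set or gene was called at an adjusted p under 0.05. Genes of the lists are given at the level of genes, where all probe sets naming a gene and no other were averaged. The leading genes and those called in both states are given by 1 probe set.

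The 6 naïve arrays were not alike within their colonies. In BALB/cByJ replicate 1, 14 of 22 genes of the exocrine pancreas, which lies beside the spleen, were above 1, against 1 gene in replicate 2 and none in the other 4 naïve arrays. In BALB/cJ replicates 1 and 2, 5 of 12 pigment cell genes were above 1, led by Dct, a melanin enzyme, at 6.29 and 6.26. BALB/cJ replicate 3 had Dct at 2.27, and the BALB/cByJ arrays had it at -0.54, 0.08 and -0.32. The same 2 BALB/cJ arrays had the lowest values of the erythroid and cell division genes described below, and replicate 3 lay between them and BALB/cByJ. Among the immunized arrays, BALB/cJ replicate 1 had the highest median of the pigment genes, 0.88, with an erythroid median of -0.14. Immunized BALB/cJ replicate 3 had the lowest erythroid median there, -0.67, with a pigment median of -0.12. A link between pigment and erythroid values was not tested. In BALB/cByJ replicate 1 the gap of 3′ over 5′ control probe sets was larger than in the median array, by 0.157 for actin and 0.301 for Gapdh. Such a gap can be a sign of RNA quality, but centred values do not show its absolute size. In the other 5 naïve arrays it lay between -0.0693 and 0.0175. The array weight of BALB/cByJ replicate 1, 0.294, was the lowest of the 12. The part of this in the results was not tested beyond leaving the array out, which gave 2470 calls in place of the 1976 described next. Results are also given with replicate 3 as the only naïve BALB/cJ array, its spread then taken from the other groups, which is called the setting with replicate 3 alone.

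Of 45037 probe sets, 1976 (4.39%) differed between the naïve colonies, of which 1206 (2.68%) were higher and 770 (1.71%) lower in BALB/cByJ. Over 2-fold were 388 (0.862%), 347 of them higher (0.77%) and 41 lower (0.091%) in BALB/cByJ. The called probe sets named 1345 genes, and 192 of them had no gene and 49 several genes in the annotation. Arrays of the colonies did not overlap in 1975 of the called probe sets, against 9753 (21.7%) of all probe sets. The count depended on single naïve arrays. Leaving out BALB/cByJ replicate 2 gave 1285 calls, leaving out its replicate 3 gave 265, and leaving out BALB/cJ replicate 1 or 2 gave 232 or 161. Over 2-fold, the last 3 of these gave 96, 77 and 67, and leaving out BALB/cJ replicate 3 gave 612. With BALB/cJ replicate 3 as the only BALB/cJ array, 26 probe sets were called, 13 in each direction, and 20 were over 2-fold. The methods' analysis of variance with its pairwise comparison called 67, 37 higher and 30 lower, here over all 45037 probe sets, whereas the study analysed fewer. At the level of genes, 1371 of 18193 (7.54%) were called, 758 (4.17%) higher and 613 (3.37%) lower, and in 1370 of these (7.53% of all) the arrays of the colonies did not overlap.

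**Figure D1:**
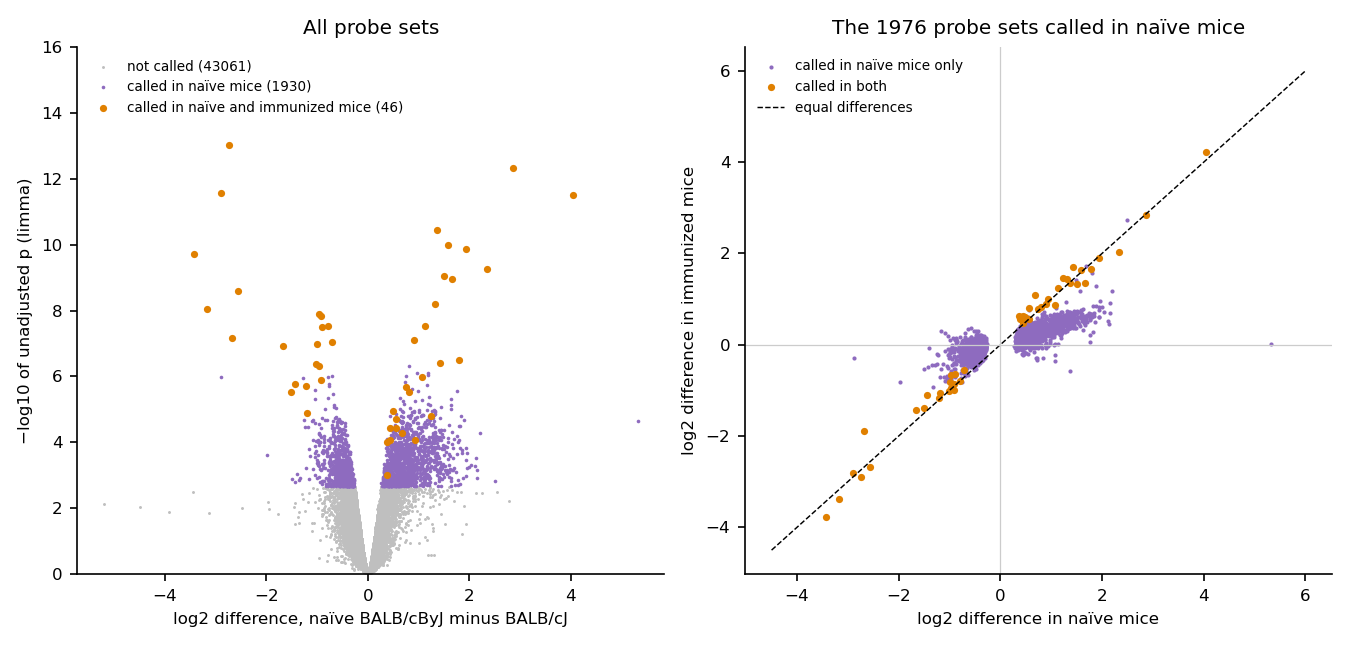
Left, the log2 difference of each probe set between naïve BALB/cByJ and BALB/cJ (x axis) against the unadjusted p of limma on a −log10 scale (y axis); 46 probe sets called in naïve and in immunized mice are orange, 1930 called in naïve mice alone are purple. Right, the 1976 naïve calls by their difference in naïve (x axis) and immunized mice (y axis): orange points lie near the dashed line of equal differences and most purple points lie closer to 0 on the y axis.

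The immunized mice, which share no array with the naïve ones, were used to divide the naïve calls into those also called there and the rest, a division by threshold. Of the naïve calls, 1731 (87.6%) had the same sign in immunized mice. The same share over all probe sets was not worked out, and many called genes moved together within arrays. The 87.6% is therefore not a measure of replication. Between the immunized colonies, 54 probe sets (0.12%) were called, and 46 (0.102% of all) were called in both states, all 46 in the same direction. These were 2.33% of the naïve and 85.2% of the immunized calls. They comprised 26 probe sets higher and 20 lower in BALB/cByJ, which named 24 single genes, with 6 probe sets naming several genes and 3 naming none. Their median absolute difference was 1.17 in naïve mice, and taken in the same direction it was 1.10 in immunized mice. Among the other naïve calls, 1180 higher ones had a median difference of 0.74 in naïve and 0.31 in immunized mice, and 750 lower ones had medians of -0.48 and -0.12. All 46 kept their direction when BALB/cJ replicate 3 stood alone. Any call whose arrays do not overlap between the colonies must do so. Of the 1976 naïve calls, 1975 were of this kind, so the direction does not set the 46 apart.

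Among called probe sets with 1 gene the largest difference was that of Otud3, a deubiquitinase, which was lower in BALB/cByJ. Its probe set 1436571_at lay at -2.22, -1.73 and -1.54 in the naïve BALB/cByJ spleens and at 1.55, 1.65 and 1.60 in BALB/cJ. The colonies were far apart and the arrays within each close together, with a difference of -3.43 (SE 0.186, limma adjusted p = 1.11e-06) that was -3.78 in immunized mice (limma adjusted p = 4.49e-07). The other Otud3 probe set was at -0.28 and was not called. Arl2bp, whose product binds the small GTPase ARL2, was at -1.19, -1.36 and -1.36 in BALB/cByJ and at 1.40, 1.5 and 1.40 in BALB/cJ (1417112_at), a difference of -2.74 (SE 0.0799, adjusted p = 4.4e-09 from limma), the smallest p of the comparison. Its second probe set differed by -2.90, so both probe sets gave the gene as lower by more than 2 log2 units. St6galnac5, a sialyltransferase of ganglioside synthesis, was at -0.81, -0.84 and -1.22 in BALB/cByJ and at 2.12, 1.80 and 1.26 in BALB/cJ. Here the BALB/cJ arrays were less alike, with replicate 3 lowest, and the difference of -2.68 (SE 0.239, adjusted p = 0.000152 from limma) was -1.90 in immunized mice; all 3 of its probe sets were called lower.

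Rtf2 and Acads had smaller differences, with the arrays of each colony close together. Rtf2, a replication termination factor, was at -0.63, -0.47 and -0.49 in BALB/cByJ and at 0.49, 0.41 and 0.40 in BALB/cJ. The difference was -0.97 (SE 0.0747, adjusted p = 3.88e-05 from limma) against -0.96 in immunized mice, and all 3 probe sets of the gene were called. Acads was at -0.45, -0.38 and -0.40 in BALB/cByJ and at 0.37, 0.33 and 0.42 in BALB/cJ, a difference of -0.78 (SE 0.0649, adjusted p = 7.38e-05 from limma) against -0.80 in immunized mice. Tmem181a, a membrane protein gene, differed by -0.90 in naïve and by -0.64 in immunized mice. Among the lower genes with large differences were also Gp2, a membrane glycoprotein of zymogen granules and of M cells, at -1.66, Golm2, a Golgi membrane protein, at -1.5, and Klhl25, an adaptor of a ubiquitin ligase, at -1.22. For Golm2 the second probe set was at -6.17e-05, and for Klhl25 the second probe set was called in the opposite direction at 0.51, so these 2 genes differed by probe set.

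Neto1, an auxiliary subunit of glutamate receptors, was the named gene with the highest difference. Its probe set 1456283_at lay at 1.5, 1.32 and 1.56 in naïve BALB/cByJ and at -1.55, -1.34 and -1.31 in BALB/cJ. The difference was 2.86 (SE 0.095, adjusted p = 1.07e-08 from limma), it was 2.84 in immunized mice, and the 3 probe sets of the gene, which ranged from 1.07 to 2.86, were all called. Zhx2 was at 1.11, 1.0 and 0.87 in BALB/cByJ and at -0.88, -1.06 and -0.91 in BALB/cJ, a difference of 1.94 (SE 0.102, adjusted p = 8.56e-07 from limma) against 1.91 in immunized mice. Of the genes known as Zhx2 targets, Afp differed by -0.12 (95% confidence interval -0.32 to 0.07) and Gpc3 by -0.11 (-0.39 to 0.17), and neither was called in the spleen. Glo1, which detoxifies methylglyoxal, was at 0.66, 0.64 and 0.75 in BALB/cByJ and at -0.66, -0.70 and -0.72 in BALB/cJ (1424108_at). Its 4 probe sets, all called, differed by 1.37 to 1.66, and the one shown differed by 1.35 in immunized mice. In Neto1, Zhx2 and Glo1 every BALB/cByJ array lay above every BALB/cJ array by more than 1. The transcript 1700097N02Rik was higher by 0.90 in naïve and 0.89 in immunized mice.

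**Figure D2:**
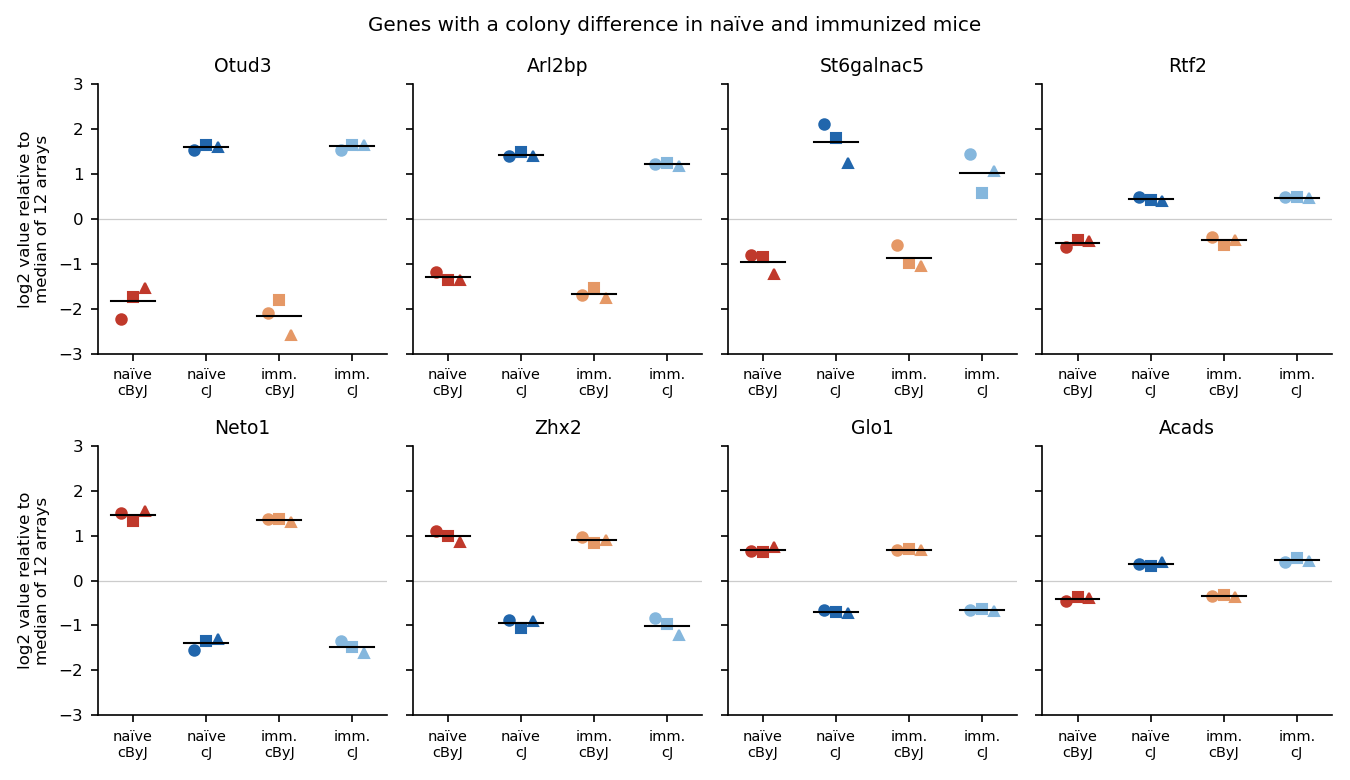
Log2 value relative to the median of the 12 arrays (y axis) of 8 genes in naïve and immunized (imm.) BALB/cByJ (cByJ) and BALB/cJ (cJ) spleens (x axis), 3 arrays per group; circles, squares and triangles are replicates 1, 2 and 3 and bars are means of 3. In all 8 genes the colonies separate in both states, from Otud3 at -3.43 to Neto1 at 2.86 in naïve mice.

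The remaining 11 genes of the class are named here to complete it, after their values were seen. Lower in BALB/cByJ were Cd207 (langerin), a lectin of some dendritic cells, at -1.01, Tfe3, a transcription factor of lysosome genes, at -0.71, H2-Q5, a class I gene of the Qa region, at -0.91, and the transcript A530047J11Rik at -1.2. Higher were Ap3s2, an adaptor subunit of vesicle transport, at 0.81, Rexo4, an RNA exonuclease, at 0.75 and 0.56 by its 2 probe sets, Dnah8, an axonemal dynein, at 0.68, and Tfpt, a subunit of a chromatin remodelling complex, at 0.56. Rttn, a centriole protein, was at 0.44, Surf4, a cargo receptor of the endoplasmic reticulum, was between 0.37 and 0.49 by 3 probe sets, and Neu3, a ganglioside sialidase, was at 0.38. For Ap3s2, 1 of 6 probe sets was called and for H2-Q5, 1 of 2. The call of Neu3 was lost without any naïve array but BALB/cByJ replicate 2 and without immunized BALB/cByJ replicate 2, those of Surf4 1448255_a_at without BALB/cByJ replicate 3 or BALB/cJ replicate 1 or 2, those of Dnah8 and the unnamed 1441372_at without BALB/cJ replicate 1 or 2, and those of Rttn and Tfpt without BALB/cJ replicate 2, all by the naïve comparison. Surf4 1416213_x_at was lost without BALB/cByJ replicate 3 or BALB/cJ replicate 1. The probe set with the largest difference of all in this class, 1458719_at, is paired with no gene in the annotation. It was at 2.04, 1.98 and 1.82 in BALB/cByJ and at -2.57, -1.82 and -1.93 in BALB/cJ, a difference of 4.05 (SE 0.156, adjusted p = 3.42e-08 from limma) against 4.23 in immunized mice. The lowest probe set with several genes in the annotation, 1451644_a_at, was at -1.21, -1.99 and -1.79 against 1.70, 1.57 and 1.25, a difference of -3.17 against -3.38 in immunized mice.

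Where they could be placed, these genes mostly stood alone along the chromosomes. In the gene order of the assembly GRCm38.p6, 21 of the 24 could be placed among the measured protein-coding genes. H2-Q5 could not, and probe sets naming several genes were not placed. Among these were 1451644_a_at at -3.17 and 1431008_at at -2.56, also of the Q region and called in both states, so that region was not examined. Within 3 measured genes to either side they had 109 different neighbours outside the class. Of these, 8 (7.34%) were called in naïve mice, close to the 7.54% of all genes called at this level, none was called in immunized mice, and none reached a difference of 1. The neighbours' median absolute difference was 0.0919, against 0.0974 over all genes. The exceptions among the placed genes were members beside each other. Whether a placed gene lies beside any of the 6 probe sets of the class naming several genes, or the 3 naming none, was not examined. Glo1 and Dnah8 were next to each other, as were Surf4 and Rexo4, and Rttn was the third measured gene from Neto1.

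The naïve calls not called in immunized mice included the red cell genes. All 50 measured genes of 4 erythroid lists had a positive difference, and 40 of them (80.0%) were called higher in naïve BALB/cByJ, with a median of 1.16, against 4.17% of all genes called higher and a median of -0.01 over all genes. None was called lower. The median value of the 50 genes was 0.16, 0.35 and 0.61 in the BALB/cByJ arrays and -0.92, -0.95 and -0.23 in the BALB/cJ arrays. BALB/cJ replicates 1 and 2 were lowest of all 12 arrays, and BALB/cJ replicate 3 was nearer to BALB/cByJ than to them. In the immunized mice the median difference of the 50 genes was 0.41, in the same direction, and no gene of the lists was called. The lowest of the array medians there, -0.67, was that of BALB/cJ replicate 3, and the other 5 arrays lay between -0.14 and 0.46. With naïve BALB/cJ replicate 3 alone the median difference of the 50 genes was 0.67 and none was called. The 40 calls became 19 when BALB/cByJ replicate 2 was left out, 3 if BALB/cByJ replicate 3 was left out, 3 for BALB/cJ replicate 1, 2 for BALB/cJ replicate 2, and none by the methods' analysis of variance.

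Transcription factors of the erythroid lineage were among the clearest, with 8 of 9 called and a median of 1.30. Gata1, the master regulator of erythroid genes, was at 0.29, 0.27 and 0.77 in BALB/cByJ and at -0.93, -1.25 and -0.38 in BALB/cJ. The groups did not overlap, and the difference was 1.30 (SE 0.233, adjusted p = 0.00986 from limma). Tal1, its partner in a shared complex, differed by 1.51, Gfi1b, a repressor needed for red cell and platelet formation, by 1.25, and E2f2, a cell cycle factor of erythroblasts, by 1.26. Sox6, a factor of terminal maturation, was called by 3 of its 4 probe sets and reached 1.95.

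Of the proteins that build the red cell membrane, 14 of 16 genes were called higher, with a median of 1.42, the highest of all lists. Icam4, the carrier of the Landsteiner-Wiener blood group, was at 0.31, 0.61 and 1.14 in BALB/cByJ and at -1.65, -1.98 and -0.43 in BALB/cJ, a difference of 2.04 (SE 0.438, adjusted p = 0.0241 from limma, probe set level). Rhag, which carries the Rh complex to the surface, was at 0.49, 0.34 and 0.57 against -1.67, -1.94 and -0.56, a difference of 1.86 (SE 0.359, adjusted p = 0.0158 from limma, probe set level). In both genes BALB/cJ replicate 3 was the BALB/cJ array closest to BALB/cByJ, and the groups did not overlap. The skeleton proteins dematin (Dmtn) and β-adducin (Add2) differed by 1.22 and 1.21 and glycophorin C (Gypc) by 1.07. Tspo2, an erythroid cholesterol-binding protein, differed by 1.85. Outside the membrane proteins, Fn3k, a kinase that repairs glycated protein, differed by 1.94 at probe set level. This was 1 of its 2 probe sets, and the other, at 1.33, was not called.

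Haem synthesis and iron uptake genes were higher in 11 of 14 cases, with a median of 0.83. They included Cpox at 1.10 and Urod at 1.27, enzymes of successive steps of haem synthesis, Steap3, the ferrireductase of erythroid iron uptake, at 1.03, and Glrx5, a protein of iron-sulphur cluster assembly, at 0.85. The globin and late erythroid list had the smallest shift, with 7 of 11 called and a median of 0.45. Hemgn, a nuclear protein of erythroblasts, was highest at 1.66 (SE 0.374, adjusted p = 0.0216 from limma), Car1, a carbonic anhydrase, was at 0.83 and the erythropoietin receptor (Epor) at 1.11. The α-globin gene Hba-a1 differed by 0.30 (95% confidence interval 0.13 to 0.47). Probe sets of near-identical globin copies can bind RNA of each, so single α-globin genes are uncertain.

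Because these genes moved together, sequence just upstream of their starts was looked up in RefSeq (GRCm38.p6), and 3 examples that hold the core of a GATA site are shown. Promoter windows of 250 bases before the start were searched on both strands for AGATAA and TGATAA. Genes of 1 chromosome were left out of the search and of all counts drawn from these windows. At least 1 of these was found for 21 of 37 erythroid list genes in the table (56.8%), against 13.8% of all 14452 measured genes in it, 15.6% of the genes called higher and 15.1% of those called lower in naïve BALB/cByJ. The printed windows are the 150 bases before the start, 5′ to 3′ on the gene's strand, with the match in capitals:
Icam4, chr9:21029282-21029431, plus strand: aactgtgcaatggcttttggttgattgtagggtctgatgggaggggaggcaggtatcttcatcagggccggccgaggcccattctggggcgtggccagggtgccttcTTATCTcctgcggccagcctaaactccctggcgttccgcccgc
Rhag, chr17:40810999-40811148, plus strand: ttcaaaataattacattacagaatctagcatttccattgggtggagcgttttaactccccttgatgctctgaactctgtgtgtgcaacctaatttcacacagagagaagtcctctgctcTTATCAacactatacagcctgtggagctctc
Hemgn, chr4:46404184-46404333, minus strand: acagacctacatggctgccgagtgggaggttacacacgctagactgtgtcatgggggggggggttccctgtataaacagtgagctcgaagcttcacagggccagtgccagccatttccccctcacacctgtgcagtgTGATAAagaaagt
In Icam4 and Rhag the match is on the opposite strand, so its complement is printed. The first base of the match lies 43, 31 and 13 bases before the start, in the same order. A match is a description of the letters and not a site shown to be bound.

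The cell division genes were a second block of calls made in naïve mice alone. Of 84 genes of replication, mitosis and homologous recombination, 80 (95.2%, against 4.17% of all genes) were called higher in naïve BALB/cByJ, with a median of 0.84, and none was called lower. The median value of the 84 genes was 0.20, 0.18 and 0.43 in the BALB/cByJ arrays and -0.65, -0.72 and -0.31 in the BALB/cJ arrays, which did not overlap. Compared with the erythroid genes, BALB/cJ replicate 3 lay nearer to its own colony, and the median with that array alone was 0.58. None was called there, and none in the immunized mice, where the median difference was 0.37. The 80 calls became 25 if BALB/cByJ replicate 3 was left out, 25 for BALB/cJ replicate 1, 8 for BALB/cJ replicate 2, and none by the methods' analysis of variance.

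In mitosis, 38 of 39 genes were called, with a median of 0.94, the exception being Cep55, an abscission protein, at -0.13 (adjusted p = 0.556 from limma). Cenpe, a kinetochore motor, was at 1.07, 0.44 and 0.67 in BALB/cByJ and at -1.0, -1.03 and -0.37 in BALB/cJ, a difference of 1.52 (SE 0.204, adjusted p = 0.00371 from limma). Cenpa, the histone variant of centromeres, was at 0.32, 0.27 and 0.27 against -0.50, -0.51 and -0.22, a difference of 0.70 (SE 0.0926, adjusted p = 0.00371 from limma). The colonies did not overlap in either gene, and the arrays within a colony were closer together for Cenpa than for Cenpe. Bub1, a kinase of the spindle checkpoint, differed by 0.94 and Kif23, a kinesin of cytokinesis, by 0.90. For replication, 30 of 31 genes were called with a median of 0.72. Cdc6, which loads the replicative helicase, was at 0.38, 0.28 and 0.64 in BALB/cByJ and at -1.12, -1.43 and -0.53 in BALB/cJ, a difference of 1.46 (SE 0.246, adjusted p = 0.00848 from limma). Prim1, a primase subunit, differed by 0.85, Tk1, thymidine kinase, by 1.28, and Rrm1, of ribonucleotide reductase, by 0.81. Recombination and Fanconi genes had 12 of 14 calls and a median of 0.50, with the helicase Brip1 at 0.61, the recombination motor Rad54l at 0.80, Fancd2 at 0.53 and Trip13 at 0.43.

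The same promoter windows were searched for the CCAAT box, which is common in cell cycle promoters, and for the E2F-type letters TTTCCCGC or TTTGGCGC. A CCAAT box was found for 48 of 72 of these genes in the table (66.7%), against 39.4% of all measured genes, 51.8% of those called higher and 34.7% of those called lower. The E2F letters were found for 6 of the 72 (8.33%), against 2.30% of all measured genes, 5.72% of those called higher and 1.97% of those called lower. The element TTTGAA, part of cell cycle homology regions, was in 20.8% of the 72, 14.1% of all measured genes, 17.6% of those called higher and 11.1% of those called lower. A promoter with 2 CCAAT boxes and one with an E2F match are shown, written as above:
Bub1, chr2:127831860-127832009, minus strand: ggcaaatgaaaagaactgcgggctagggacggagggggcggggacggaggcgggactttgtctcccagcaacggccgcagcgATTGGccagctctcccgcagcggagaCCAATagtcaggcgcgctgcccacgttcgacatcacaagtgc
Cdc6, chr11:98908001-98908150, plus strand: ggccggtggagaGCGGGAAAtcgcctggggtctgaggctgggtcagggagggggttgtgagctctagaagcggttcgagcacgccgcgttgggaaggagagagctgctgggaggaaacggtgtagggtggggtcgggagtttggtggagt
The first CCAAT match of Bub1 and the match of Cdc6 are on the opposite strand and printed as complements.

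**Figure D3:**
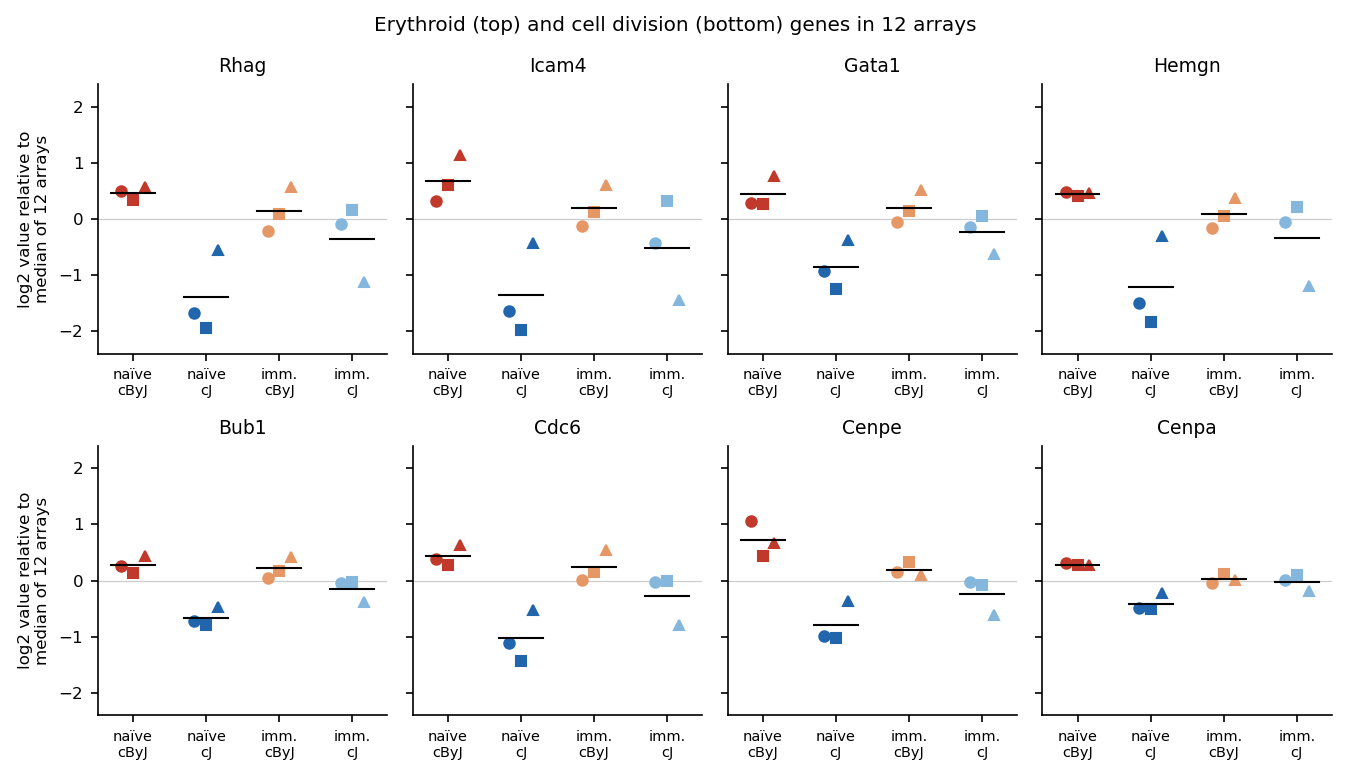
Log2 value relative to the median of the 12 arrays (y axis) of 4 erythroid and 4 cell division genes in naïve and immunized (imm.) BALB/cByJ (cByJ) and BALB/cJ (cJ) spleens (x axis), 3 arrays per group; circles, squares and triangles are replicates 1, 2 and 3 and bars are means of 3. Naïve BALB/cJ replicates 1 and 2 are the lowest arrays and replicate 3 lies above them, as for Rhag at -1.67, -1.94 and -0.56.

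Naïve BALB/cJ replicate 3 was placed for each probe set on a scale from the mean of BALB/cJ replicates 1 and 2 (0%) to the mean of BALB/cByJ (100%). Over the 46 probe sets called in both states its median position was 4.62%, with quartiles of -8.39% and 11.3%, and none lay over 50%. For the 1180 probe sets called higher in naïve BALB/cByJ alone the median was 35.2% (quartiles 19.5% and 47.2%), and 233 (19.7%) lay over 50%. For the 750 called lower the median was 26.8% (10.9% and 40.3%), and 86 (11.5%) lay over 50%. These positions are a description with no test, since the array takes part in the calls. The third BALB/cJ spleen thus sat with its colony for the probe sets called in both states and further toward the other colony for the rest.

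**Figure D4:**
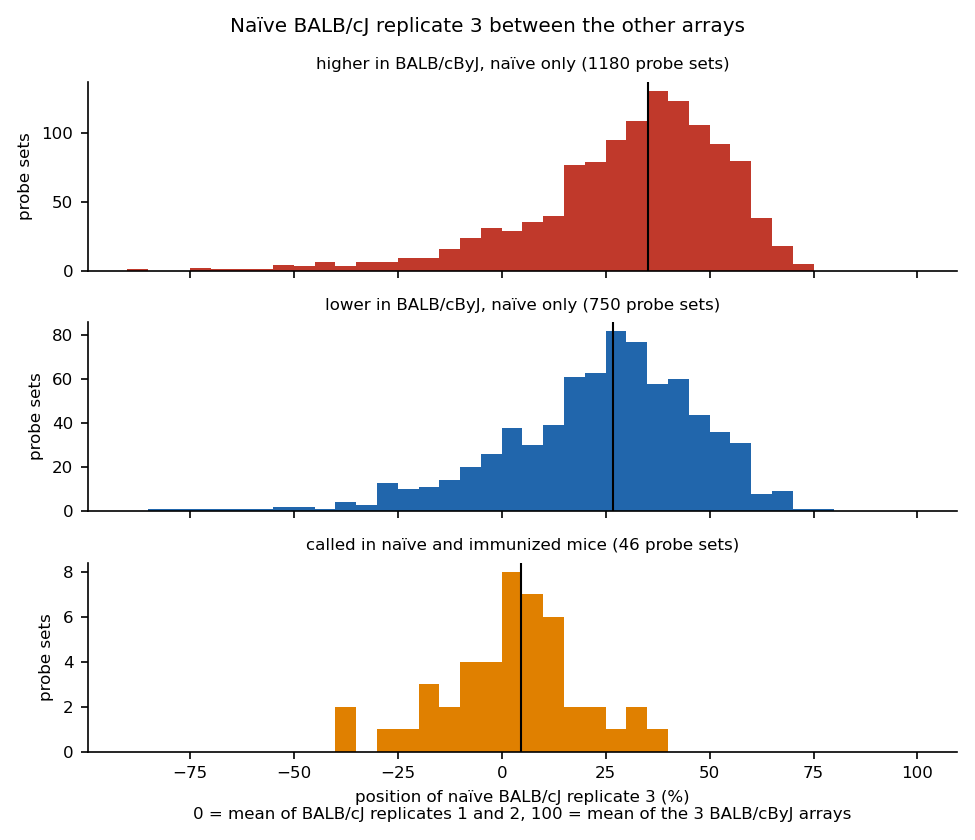
Number of probe sets (y axis) by the position of naïve BALB/cJ replicate 3 (x axis, percent; 0 is the mean of BALB/cJ replicates 1 and 2, 100 that of BALB/cByJ) among 1180 probe sets called higher and 750 called lower in naïve BALB/cByJ alone and 46 called in both states; lines are medians. The medians are 35.2%, 26.8% and 4.62%.

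Few of the genes higher in naïve BALB/cByJ by the largest margins outside these blocks kept their call when an array was left out. Of the 15 genes with the highest differences, Neto1, Zhx2 and Tac2, the precursor of neurokinin B, kept it without each of the 12 arrays in turn. Tac2 was at 0.87, 0.93 and 1.34 in BALB/cByJ and at -1.39, -0.80 and -0.33 in BALB/cJ. The groups lay apart, and the difference was 1.89 (SE 0.287, adjusted p = 0.0076 from limma) and 1.29 (adjusted p = 0.239 from limma) in immunized mice. Mid1, a ubiquitin ligase on microtubules, was at 1.78, 2.47 and 0.55 against -0.65, -0.33 and -0.83, a difference of 2.20 by 1 of its 3 probe sets, the others being not called and as low as -0.43; its call was lost without BALB/cJ replicate 1. Apol8, an apolipoprotein L, at 2.16, Ypel4, of the yippee-like family, at 2.15, Samd11 at 1.95 and the transcript 5430401H09Rik at 1.88 lost their calls without BALB/cByJ replicate 3 or BALB/cJ replicate 1 or 2. Apol8, Ypel4 and 5430401H09Rik lost them also without BALB/cByJ replicate 2, and the latter 2 and Fn3k without immunized BALB/cByJ replicate 2. The same 3 or 4 naïve arrays decided the calls of Icam4, Sox6, Fn3k, Add2, Rhag and Tspo2. Pabpc1, the cytoplasmic poly(A)-binding protein, was at 2.13 by 1 of 2 probe sets and lost its call without BALB/cByJ replicate 2 or BALB/cJ replicate 1 or 2.

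The genes lower in naïve BALB/cByJ, apart from those shared with immunized mice, were led by Fabp7, a fatty acid-binding protein of glia. It was at -1.56, -1.32 and -1.48 in BALB/cByJ and at 1.62, 1.75 and 0.93 in BALB/cJ, with wide separation. The difference was -2.89 (SE 0.329, limma adjusted p = 0.0013), against -0.29 in immunized mice (limma adjusted p = 0.86), and naïve against immunized difference gave an unadjusted p of 0.000102 in limma (adjusted over all probe sets, not called). Abcc9, a potassium channel subunit found in pericytes, at -1.28 with 3 of 3 probe sets called, and Snap91, a clathrin assembly protein, at -1.25 by 1 of 2, were like Fabp7 called without each array in turn. Mgp, an inhibitor of matrix calcification, was at -0.80, -0.70 and -0.78 in BALB/cByJ and at 1.71, 1.63 and 0.34 in BALB/cJ, a difference of -1.98 (SE 0.391, adjusted p = 0.0172 from limma). As with the erythroid genes, BALB/cJ replicate 3 stood nearest to BALB/cByJ, and the call was lost without BALB/cByJ replicate 3 or BALB/cJ replicate 1 or 2. Tfpi2, a protease inhibitor of matrix, at -1.22 lost its call without the same arrays, Dkk3, a secreted protein of the Dickkopf family, at -1.24 without BALB/cJ replicate 1 or 2, and neurotensin (Nts) at -1.40 without 4 of the naïve arrays. Igha, the constant region of IgA, differed by -1.5, but its BALB/cByJ arrays ranged from -0.16 to -1.30 and its call was lost without any naïve array but BALB/cByJ replicate 1 and without immunized BALB/cByJ replicate 2.

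Over all 39 lists, 550 of 622 genes were measured, and 160 were called, 125 higher and 35 lower in naïve BALB/cByJ, of which the erythroid and division lists account for 120 higher. With the erythroid mean as a covariate or by the methods' analysis of variance, 2 list genes were called, Zhx2 and Acads. The covariate was the mean of the erythroid list genes themselves, so it cannot test them. Those genes also separated the naïve colonies, so the covariate takes up part of the colony difference in other genes. Of the genes of resident and myeloid cells, those of conventional dendritic cells were called most often. In this list 7 of 12 genes were lower (58.3%, against 3.37% of all genes), and the median was -0.29. Cd83, a maturation marker, was at -0.45, -0.51 and -0.59 in BALB/cByJ and at 0.14, 0.02 and -0.05 in BALB/cJ, a difference of -0.55 (SE 0.091, adjusted p = 0.00807 from limma). Relb, a transcription factor of dendritic cell development, was at -0.13, -0.15 and -0.15 against 0.18, 0.23 and 0.21, a difference of -0.35 (SE 0.0583, adjusted p = 0.00817 from limma). The 3 BALB/cJ arrays were alike for Relb, unlike for the red cell genes. Zbtb46, a factor of the same cells, and Esam, an adhesion molecule, were each at -0.29. The 7 calls became 3 under quantile normalization, 3 with the naïve arrays alone, 2 when BALB/cByJ replicate 3 was left out, 2 for BALB/cJ replicate 1 and 1 for BALB/cJ replicate 2. Of 10 MHC class II genes 4 were called lower (40.0%), with a median of -0.20, namely H2-Ab1 at -0.33, H2-DMa at -0.26, H2-Eb1 at -0.27 and their regulator Ciita at -0.28; there was 1 call under quantile normalization, none with the naïve arrays alone, none of 7 without the probe sets ending in _s_at, _x_at or _a_at, 2 when BALB/cByJ replicate 1 or BALB/cJ replicate 3 was left out and none for BALB/cByJ replicate 3 or BALB/cJ replicate 1 or 2.

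Of 11 endothelial genes 4 were called lower (36.4%, against 3.37% of all genes), with a median of -0.37, and all 11 were negative. Plvap, of endothelial diaphragms, was at -0.12, -0.16 and -0.41 in BALB/cByJ and at 0.41, 0.37 and 0.27 in BALB/cJ, a difference of -0.58 (SE 0.096, adjusted p = 0.00817 from limma). Tek, the angiopoietin receptor, differed by -0.60, Stab2, a scavenger receptor of sinus endothelium, by -0.50, and Tie1 by -0.35. In these genes the 2 colonies were apart in every array, and the 4 calls became 6 when BALB/cByJ replicate 1 was left out and 1 for BALB/cByJ replicate 3 or BALB/cJ replicate 1 or 2. Of 15 genes of reticular stroma and smooth muscle all were negative, with a median of -0.40, and Mgp was the 1 called (6.67%); 3 were called without BALB/cByJ replicate 2, 2 without BALB/cByJ replicate 1 or BALB/cJ replicate 3, and none without the other naïve arrays. Cxcl12, a chemokine of stroma, was at -0.40 (adjusted p = 0.0553 from limma) and Pdgfrb, a pericyte receptor, at -0.84 (adjusted p = 0.0679 from limma).

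In the B cell list 2 of 16 genes were called lower (12.5%, against 3.37% of all genes). All 16 were negative, with a median of -0.26, and the called ones were Fcmr, the IgM receptor, at -0.32 and Fcer2a (CD23) at -0.45. Neither was called without BALB/cByJ replicate 3 or BALB/cJ replicate 1 or 2, and 1 was without BALB/cByJ replicate 1, whereas 4 were without BALB/cJ replicate 3. None of 21 T cell genes, with a median of -0.09, none of 12 plasma cell genes, with a median of -0.23, and none of 12 MHC class I genes, with a median of -0.15, was called. These 12 are those of 22 listed class I genes that a probe set names alone, and they hold neither H2-Q5, at -0.91 above, nor the genes of the probe sets 1451644_a_at and 1431008_at, which are each annotated to several class I genes of the Q region and were lower by -3.17 and -2.56. Of 13 NK cell and cytotoxic genes, Ccl5 was called lower at -0.52 (7.69%), and of 12 T activation genes Bcl6 at -0.32 (8.33%). The 7 plasmacytoid dendritic cell genes had a median of -0.15 with 2 positive, and 1 of them, the surface lectin Siglech, was called, higher at 0.52 (14.3%, against 4.17% of all genes). Kit, the stem cell factor receptor, at -0.39 was the 1 of 11 stem and progenitor genes called (9.09%), and none of 15 megakaryocyte genes was, with a median of -0.01. Each of these shares rests on 1 gene. None of these single calls was made without BALB/cJ replicate 1 or 2, and, apart from Siglech, none without BALB/cByJ replicate 3. Siglech and Bcl6 were also not called without BALB/cByJ replicate 1 or 2.

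Among myeloid genes, neutrophil and granule genes had the lowest median of all lists of blood cells, -0.63, all 17 being negative and none called. Mpo, the granule peroxidase, was at -0.88, -1.39 and -1.45 in BALB/cByJ and at 0.13, -0.94 and -0.24 in BALB/cJ, so that the colonies overlapped, with a difference of -0.89 (adjusted p = 0.117 from limma). Of 19 red pulp macrophage genes 1 was called (5.26%, against 3.37% of all genes called lower). It was Vsig4, a complement receptor of tissue macrophages, at -1.33, and by its probe set it was lost without any naïve BALB/cByJ array, BALB/cJ replicate 1 or 2 or immunized BALB/cByJ replicate 2. Without BALB/cByJ replicate 1, 4 genes of the list were called lower. Of 9 monocyte genes Nr4a1, a nuclear receptor, was called at -0.36 (11.1%, a share that rests on 1 gene). Without BALB/cByJ replicate 1, 2 genes of that list were called, but none without any other naïve array. None of 7 mast cell, basophil and eosinophil genes was called.

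Of 13 immediate early genes 4 were called lower (30.8%, against 3.37% of all genes), with a median of -0.26. Fos was at -0.65, -1.11 and -0.88 in BALB/cByJ and at 0.43, 0.01 and 0.02 in BALB/cJ, a difference of -1.03 (SE 0.199, adjusted p = 0.0125 from limma). Ier2 differed by -0.28, Jun by -0.31 and Egr1 by -0.67, and the 4 calls became 1 under quantile normalization, 2 with the naïve arrays alone, 1 when BALB/cByJ replicate 2 was left out and none for BALB/cByJ replicate 3 or BALB/cJ replicate 1 or 2. Of a list of 6 cytokines, Il1b was called at -0.71 (SE 0.146, adjusted p = 0.0152 from limma, gene level), its values being -0.38, -0.43 and -0.52 in BALB/cByJ against 0.46, 0.28 and 0.05 in BALB/cJ. Among the other 5, Il2 had the largest difference, -0.36 (95% confidence interval -0.67 to -0.04), and Il4, Il6, Ifng and Tnf had intervals that spanned 0. Bcl3, a nuclear partner of NF-kB, at -0.40 and Il1b were the 2 called of 11 NF-kB response genes, with 5, 3 and 1 calls when BALB/cByJ replicate 1, 2 or 3 was left out and none for BALB/cJ replicate 1 or 2. The chemokine Cxcl16 was lower by -0.53, the 1 call of 16 chemokines, and neither it nor Il1b was called without BALB/cByJ replicate 3 or BALB/cJ replicate 1 or 2. None of 10 interferon-γ response genes was called, with a median of -0.23, but 4 were called lower without BALB/cByJ replicate 1.

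The type I interferon list had a positive median difference, 0.23, and 14 of 18 genes were positive, but the colonies overlapped. The list median was 0.29, 0.10 and -0.32 in the BALB/cByJ arrays and -0.23, -0.30 and -0.09 in the BALB/cJ arrays. BALB/cByJ replicate 3 was thus the lowest of the naïve arrays. The antiviral genes Oas3 at 1.23 and Rsad2 at 1.2 were called (11.1%, against 4.17% of all genes called higher). Oas3 was at 0.82, 0.81 and 0.29 in BALB/cByJ and at -0.73, -1.0 and -0.04 in BALB/cJ, so that replicate 3 of each colony lay closest to the other. Neither was called without BALB/cByJ replicate 1 or 2 or BALB/cJ replicate 1 or 2. Irf7, the master factor of the response, was at 0.55 (adjusted p = 0.0505 from limma). For 20 ribosomal protein genes the range was -0.10 to 0.28, and for 26 respiratory chain genes -0.12 to 0.14, with no call in either list, and none of 11 endoplasmic reticulum stress genes was called. Of 11 heat shock genes Hspb1 was called at -0.38 (9.09%, against 3.37% of all genes called lower), and none was without any 1 naïve array.

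Genes of tissues other than spleen also differed between the arrays, and the medians of the pancreas and neural crest lists did not overlap between the colonies. Of 22 pancreatic acinar genes 21 were positive and 1 was called (4.55%, against 4.17% of all genes called higher). It was the trypsinogen Prss2 at 0.89, with values of 1.59, 0.41 and 0.31 in BALB/cByJ against -0.17, -0.14 and -0.04 in BALB/cJ. The highest was Cpb1, a carboxypeptidase, at 2.24 (adjusted p = 0.0516 from limma), and the lowest Reg3d at -0.04. The list median was 1.73, 0.22 and 0.10 in the BALB/cByJ arrays and -0.15, -0.07 and 0.02 in the BALB/cJ arrays. The probe set with the highest difference of all calls, 1416055_at, has several genes in the annotation and belonged to this pattern, at 8.06, 4.66 and 3.29 against 0.30, -0.08 and -0.16. Pigment cell genes had 0 calls of 12 by limma, with Dct at -5.20 (95% confidence interval -8.79 to -1.60, adjusted p = 0.0799 from limma) and Mc1r highest at 0.04. The median of 9 neural crest and Schwann cell genes was -0.28, 0.01 and -0.09 in BALB/cByJ and 0.16, 0.26 and 0.06 in BALB/cJ. None of the 9 was positive and 2 were called lower (22.2%, against 3.37% of all genes called lower). These were Fabp7 and Erbb3, a neuregulin receptor, at -0.32, and Gfra3 was highest at -0.000249. Of 10 adipose genes Pparg, an adipocyte factor that macrophages share, was called at -0.44, while Adipoq was lowest at -0.96 (95% confidence interval -3.03 to 1.11) and Fabp4 highest at 0.06. Leaving out BALB/cByJ replicate 1 gave 4 pancreas calls and leaving out any BALB/cJ array none, leaving out BALB/cJ replicate 3 gave 6 lower pigment calls and 3 lower neural crest calls, and an adipose gene was called without BALB/cByJ replicate 1 but without no other naïve array. The part of pigment and pancreas RNA in the other differences was not tested.

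**Figure D5:**
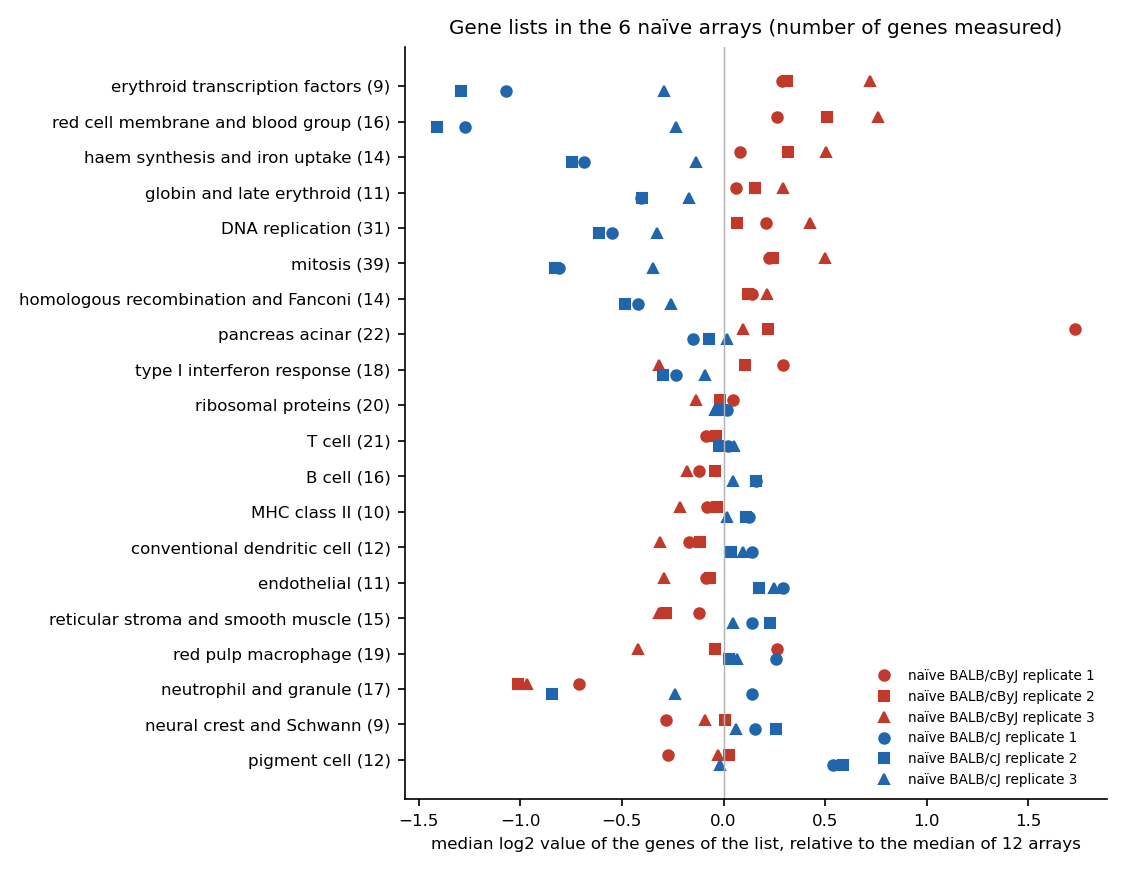
Median log2 value of the genes of each list, relative to the median of the 12 arrays (x axis), in the 6 naïve arrays for 20 gene lists (y axis, genes measured in brackets); BALB/cByJ arrays are red and BALB/cJ arrays blue, with circles, squares and triangles for replicates 1, 2 and 3. The colonies do not overlap in the 7 erythroid and cell division lists, where BALB/cJ replicates 1 and 2 lie lowest. Nor do they in the pancreas list, where BALB/cByJ replicate 1 stands apart at 1.73. BALB/cByJ lies lower without overlap in the T cell, B cell, MHC class II, conventional dendritic cell, endothelial, reticular stroma and neural crest lists. In the T cell list the colonies nearly touch, at -0.0364 in BALB/cByJ replicate 2 and -0.0246 in BALB/cJ replicate 2, and none of its 21 genes was called.

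Whether the colony difference itself changed with immunization was tested by the difference between the naïve and the immunized colony differences. By limma 0 probe sets were called, and 3417 (7.59%) had an unadjusted p under 0.05. Leaving out immunized BALB/cJ replicate 1 gave 10 calls, immunized BALB/cJ replicate 3 gave 3, naïve BALB/cByJ replicate 1 gave 2 and immunized BALB/cByJ replicate 2 gave 1. The 5 smallest unadjusted p values belonged to Neil1 (7.06e-06), Cep55 (8.79e-06), Endod1 (5.27e-05), Rassf6 (7.42e-05) and a probe set with several genes (6.03e-05). Neil1, a glycosylase of base excision repair, was at -0.20 in naïve and 0.81 in immunized mice, and Cep55 by this probe set at -0.27 and 0.67. Endod1, a nuclease-like protein, was at 0.98 in naïve mice, where 5 of 5 probe sets were called, and at 0.06 in immunized mice. Rassf6, a Ras association protein, was at -0.48 and 0.68. A colony difference past the threshold in naïve mice and not in immunized mice is thus not shown to differ between the states.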

How the data were processed

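Each of 12 arrays measured the spleen RNA of 1 mouse, and the 6 naïve arrays are compared here. According to the methods, the deposited values are signals on a logarithmic scale that GeneSpring summarized by RMA, which normalizes by quantiles, less each probe set's median over the arrays. The base is not named in the sources used here, and the deposited values were read as log2, the usual scale of RMA. Filters on signal could therefore not be applied, and the number of arrays limits the precision. Of 45101 probe sets 64 controls were left out; 34945 of the others had 1 gene, 932 several and 9160 none in the annotation, giving 18193 genes. Group means over all 12 arrays were fitted by lmFit and eBayes (limma 3.58.1, R 4.3.3), with p values adjusted over all probe sets or all genes. Promoters came from RefSeq.

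The comparison, the 39 gene lists and the named genes' rule were chosen with earlier results of these data known. The text names, among calls with colonies not overlapping, up to 15 genes at each end of the difference, up to 4 genes per list by smallest p, the extreme members of the pancreas, pigment, neural crest and adipose lists, known substrain genes and 6 cytokines, up to 5 probe sets by the test between states, and up to 10 genes called in both states. H19 was not matched to a gene of the arrays. Other genes named were chosen after their values were seen.

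Alternatives were quantile normalization, subtraction of array medians, a trended and robust variance, array weights, a replicate block, the methods' analysis of variance (1 factor, 4 groups, run here on all probe sets, which are more than the study analysed), leaving out probe sets ending in _s_at, _x_at or _a_at, the level of genes, leaving out each array, or naïve BALB/cJ replicates 1 and 2 together, the erythroid mean as a covariate, the naïve arrays alone, and a test against a fold of 1.2. The scripts were tested on simulated data. P values measure the spread between mice, 1 array each. Python 3.11.15 with pandas 2.3.3 drew up the tables, and matplotlib 3.10.9 the figures.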

Additional observations from a re-analysis of the deposited data

How the results depend on the processing

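Probe sets called in naïve mice (1976), those over 2-fold (388), those called in both states (46), those by the difference between states (0) and list genes (160) changed as follows. Quantile normalization gave 1309, 217, 60, 2 and 130, and array weights 5950, 604, 61, 0 and 236, with 48.8% of calls higher in BALB/cByJ against 61.0% before. The naïve arrays alone gave 1262 calls, 71.0% of them higher, with 386 over 2-fold. Without naïve BALB/cJ replicates 1 and 2 together the counts were 26, 20, 26, 0 and 2, with 50.0% of calls higher. With the erythroid mean as a covariate they were 26, 20, 23, 0 and 2. That covariate is made of erythroid list genes and follows the colony in naïve mice, so these counts cannot show which calls hold. The test against a fold of 1.2 left 83 calls, 60 over 2-fold, and the methods' analysis of variance 67 calls, 22 over 2-fold, and 2 list genes. Leaving out probe sets that may cross-hybridize left 30 called in both states. At the level of genes, 189 of the calls were over 2-fold and 22 were called in both states. Leaving out 1 array in turn gave 161 to 2470 calls, 67 to 612 over 2-fold, 38 to 51 called in both states, 0 to 10 by the difference between states and 15 to 170 list genes. Subtracting array medians and a trended and robust variance left all of these counts within 1.5 times. The causes of these changes were not tested.

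With the replicate number as a block, 2247 probe sets were called, 53.9% of them higher, 366 over 2-fold and 46 in both states. Over all groups, samples with the same number had correlations of their deviations from the group means between -0.289 and 0.368. Those with different numbers lay between -0.415 and 0.524. Between the naïve colonies, the same-number pairs were at 0.296, 0.0976 and 0.35 and the others between -0.31 and 0.022. Whether the numbers pair the mice was not tested.

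Of 75 named probe sets, 3 reversed, all under the erythroid covariate, where Ypel4 was at -0.23, Fn3k at -0.18 and 5430401H09Rik at -0.20. All 46 probe sets called in both states kept their direction under every alternative in which they were tested, and 40 to 46 kept the naïve call without 1 array. Leaving out arrays cannot change the direction of a probe set whose arrays do not overlap between the colonies. The number of arrays, and values with no signal level, limit which small differences could be called.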

Other observations

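Among gene families picked by symbol after the values were seen, collagen chains had 5 of 42 genes lower (11.9%, against 3.37% of all genes) and 1 higher (2.38%, against 4.17%) in naïve BALB/cByJ, with a median of -0.12. Col5a2 was lower by -1.02, Col14a1 by -0.74, Col4a1 by -0.59, Col18a1 by -0.55 and Col15a1 by -0.54, and Col17a1 was higher by 0.49. None of these was called by limma without BALB/cJ replicate 1 or 2, while 7 chains were lower without BALB/cJ replicate 3. Of 22 protocadherin beta genes, which encode neuronal adhesion proteins, Pcdhb17 at -0.79, Pcdhb9 at -0.74 and Pcdhb20 at -0.48 were called (13.6%), and none was without BALB/cByJ replicate 3 or BALB/cJ replicate 1 or 2. Of 37 kinesins 9 (24.3%) were higher, among them Kif18b at 1.37, Kif11 at 1.19, Kif22 at 1.19 and Kif4 at 1.13, motors of mitosis, while the family median was 0.00713. The 9 calls became 2 when BALB/cByJ replicate 3 or BALB/cJ replicate 1 was left out and 1 for BALB/cJ replicate 2.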
